A study of Homo sapiens with 6 samples.

Results

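Axon guidance ligands and receptors were followed in PANC-1 cells. PANC-1 is an established cell line from a human carcinoma of the pancreas, and the labels give its genotype as WT. The group treated with Schisandrin B, a lignan of Schisandra fruit, received 20 µM for 24 h, and the vehicle group received less than 0.1% DMSO for 24 h, with 3 libraries in each group. The members were the protein-coding rows of the deposited table whose symbols belong to the netrin, DCC, UNC5, SLIT, ROBO, semaphorin class 3 to 7, plexin, neuropilin, EPH and ephrin families. That gave 71 genes of 63241, of which 34 encode receptors and 37 encode ligands. A single cell line is the only model here, and nothing in the labels tells whether its replicates are separate cultures, so p-values measure the spread between these libraries, which may be technical.

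Axon guidance cues are secreted or membrane-bound ligands that steer growing neurites, and many epithelial, endothelial and tumour cells use the same genes for adhesion and migration. Netrins act through DCC, which mediates attraction, and through UNC5 receptors, which mediate repulsion and can signal cell death when no ligand is bound. SLIT proteins bind ROBO receptors. Semaphorins bind plexins, and most class 3 semaphorins need a neuropilin as co-receptor. Ephrins are bound to the cell surface and signal through EPH receptor tyrosine kinases on neighbouring cells, with signalling in both directions.

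Library totals ran from 13667700 to 16045095 counts in Schisandrin B and from 13656826 to 18289410 in vehicle. CPM below are counts scaled to library size with TMM factors. Between pairs of libraries, Pearson's r of log2 CPM over 15773 genes was 0.986 to 0.988 for libraries of the same group and 0.921 to 0.929 otherwise; genes are not independent replicates. Of the 7 markers listed for a pancreatic ductal line, KRT8, KRT18, KRT19 and VIM were well above 1 CPM, whereas EPCAM, CDH1 and KRT7 were under 1 CPM in every library. KRT8, KRT19, KRT18 and VIM were all called lower in Schisandrin B, by 2.67-fold, 2.08-fold, 1.64-fold and 1.22-fold (edgeR adjusted p = 2.95e-06 or smaller). Of 5 neuronal markers SNAP25 and STMN2 had no count in any library, and RBFOX3 stayed under 1 CPM. SYP averaged 15.7 CPM in Schisandrin B and 11.3 CPM in vehicle, and ELAVL3 1.70 and 0.490 CPM. Both were called higher in Schisandrin B (edgeR adjusted p = 0.00403 for SYP and 7.93e-04 for ELAVL3). The 4 Schwann cell markers together stayed between 0 and 0.216 CPM in Schisandrin B and between 0 and 0.148 CPM in vehicle. The summed level of 4 leukocyte markers was 50.7 to 57.5 CPM in Schisandrin B and 24.3 to 27.2 CPM in vehicle, that of 5 fibroblast markers 1.35 to 1.88 and 1.85 to 2.56 CPM, and that of the neuronal markers 15.4 to 21.4 and 11.4 to 13.2 CPM, and the part of these in the results was not tested. In bulk RNA, fewer cells that carry a transcript and less transcript per cell cannot be told apart. All changes are relative to the other genes of the library.

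Among the 71 members, 47 had enough counts to be tested, 17 had counts below the filter and 7 had no count in any library. In edgeR's quasi-likelihood test with an adjusted p threshold of 0.05 over all genes, 19 of the 47 rose with Schisandrin B, 18 fell, and the other 10 did not pass. A large share of the transcriptome moved in this experiment, so these counts stand against a high background. Over all genes tested 70.2% were called, with 35.0% higher and 35.2% lower. Over protein-coding genes alone 73.4% were called, with 32.1% higher and 41.4% lower. The 37 called members are 78.7% of those tested, a share near that background. The median log2 fold change of the tested members was 0.03, beside -0.08 over protein-coding genes. Among genes with at least 5 CPM in 3 libraries, 16 members were higher and 10 lower of 35 tested, and over all 11616 genes that pass that filter 38.1% were higher and 38.6% lower.

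Receptors and ligands divided differently. Of 20 tested receptors 12 rose, 5 fell and 3 did not pass, with a median log2 fold change of 0.57. Of 27 tested ligands 7 rose, 13 fell and 7 did not pass, with a median of -0.22. The share called was 85% of tested receptors and 74.1% of tested ligands, beside 73.4% of protein-coding genes. Of the protein-coding genes 32.1% were higher and 41.4% lower, and the share of ligands called was near that background. The counts given below for single families stand against these same shares. The difference between receptors and ligands was not tested. Changes of more than 2-fold were found in 7 members that rose, namely UNC5B, ROBO4, SEMA3B, PLXNA3, ROBO3, PLXNB3 and SEMA6A, and in 6 that fell, namely SEMA6B, SEMA3G, EPHB3, EPHA7, SEMA3D and EFNA2. Over protein-coding genes 10.5% rose by that much and 9.88% fell by that much. The groups did not overlap for 18 members that were higher in Schisandrin B and 17 that were lower, where 76.4% of protein-coding genes were so separated. All member counts together took 0.2204, 0.2367 and 0.224% of the counts in the Schisandrin B libraries and 0.2039, 0.2021 and 0.1989% in the vehicle libraries.

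**Figure D1:**
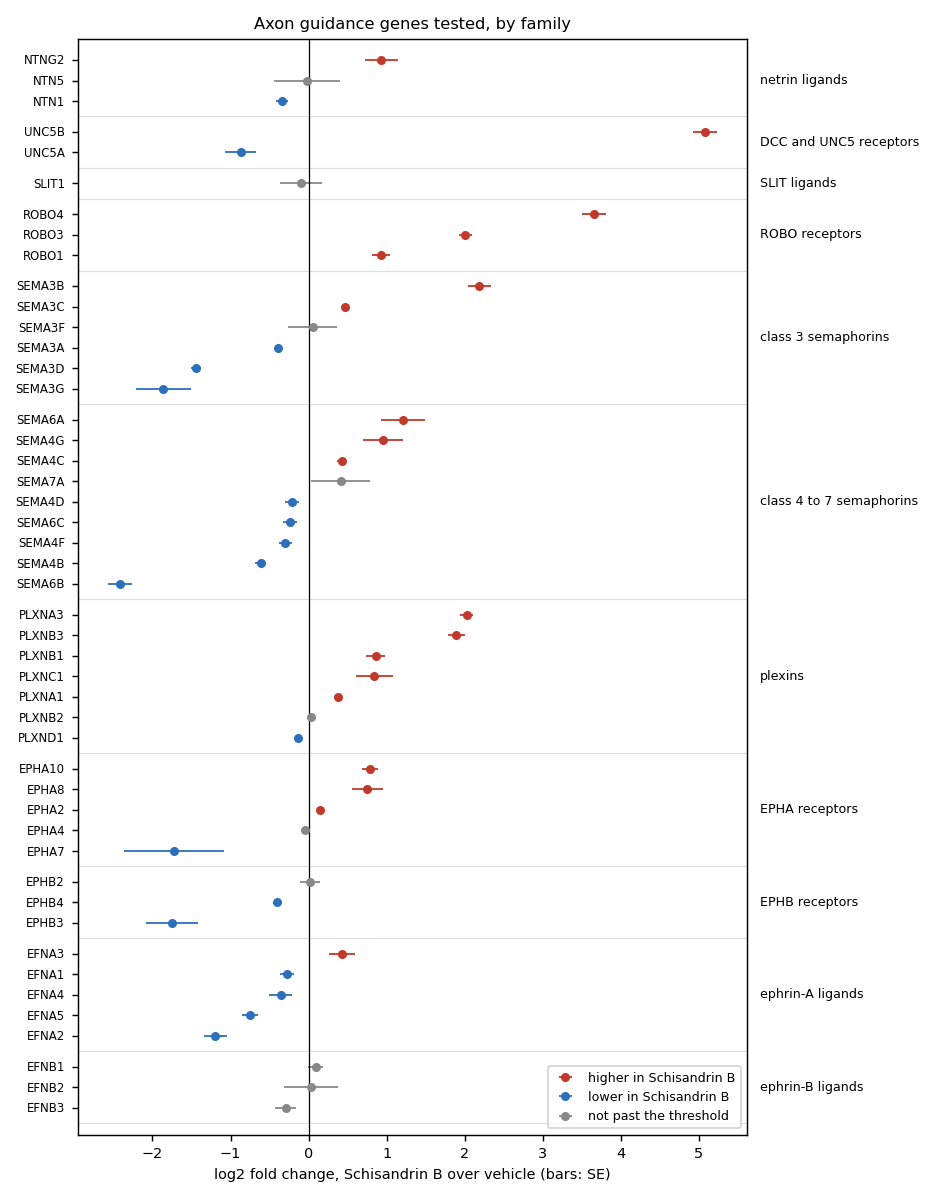
Log2 fold change of Schisandrin B over vehicle (x axis, bars are the SE) for the 47 tested members, grouped by family down the page, with colour showing the call at an adjusted p of 0.05. UNC5B stands farthest to the right at 5.08 and SEMA6B farthest to the left at -2.42, and the ROBO receptors and most plexins lie right of 0.

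The start regions of 4 members are shown because they span the responses, with ROBO4 and PLXNA3 among the strongest rises, SEMA3D among the strongest falls, and SEMA3C as the called member with a match to a stress motif. They come from RefSeq on GRCh38.p14, run 5′ to 3′ on the gene's strand, and cover 250 bases before to 50 bases after an annotated start. The windows are chr11:124897816-124898115 on the minus strand for ROBO4, chrX:154458031-154458330 on the plus strand for PLXNA3, chr7:80922340-80922639 on the minus strand for SEMA3C and chr7:85187007-85187306 on the minus strand for SEMA3D. Capitals mark a match to TGATGNAA, the core of the C/EBP-ATF response element bound by stress factors such as ATF4 and CHOP.
ROBO4: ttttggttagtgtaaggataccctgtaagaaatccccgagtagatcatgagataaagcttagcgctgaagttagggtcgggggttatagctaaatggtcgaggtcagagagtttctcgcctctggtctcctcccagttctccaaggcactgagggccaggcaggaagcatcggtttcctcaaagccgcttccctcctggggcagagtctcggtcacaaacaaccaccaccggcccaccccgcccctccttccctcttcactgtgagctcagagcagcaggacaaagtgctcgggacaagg
PLXNA3: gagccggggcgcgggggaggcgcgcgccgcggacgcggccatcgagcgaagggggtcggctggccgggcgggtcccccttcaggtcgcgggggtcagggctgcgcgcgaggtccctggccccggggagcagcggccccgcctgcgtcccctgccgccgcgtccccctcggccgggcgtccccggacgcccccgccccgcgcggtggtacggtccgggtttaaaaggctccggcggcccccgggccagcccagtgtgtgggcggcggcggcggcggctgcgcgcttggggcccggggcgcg
SEMA3C: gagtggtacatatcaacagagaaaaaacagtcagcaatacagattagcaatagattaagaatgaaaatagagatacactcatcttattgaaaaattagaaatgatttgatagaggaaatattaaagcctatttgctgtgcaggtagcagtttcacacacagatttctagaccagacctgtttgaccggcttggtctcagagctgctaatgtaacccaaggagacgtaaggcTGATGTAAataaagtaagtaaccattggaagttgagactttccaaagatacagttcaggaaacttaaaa
SEMA3D: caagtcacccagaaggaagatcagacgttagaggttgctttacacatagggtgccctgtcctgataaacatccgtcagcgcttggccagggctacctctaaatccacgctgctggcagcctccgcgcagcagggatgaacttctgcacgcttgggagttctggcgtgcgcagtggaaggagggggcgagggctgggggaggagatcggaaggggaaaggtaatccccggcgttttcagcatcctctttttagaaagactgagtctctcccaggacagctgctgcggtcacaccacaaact
The windows differed in base composition, with 55.3% G and C in ROBO4, 83.3% in PLXNA3, 36.0% in SEMA3C and 57.0% in SEMA3D. Both strands were searched for TGATGNAA, for the ER stress element (CCAAT and CCACG with 9 bases between them), for the AP-1 site TGAGTCA and for the E-box CACGTG. The end of the ER stress element can share bases with an E-box. Windows were available for 60 of the 71 members, 94 in all. None was available for UNC5B or SEMA6B, so their start regions were not searched. The windows covered 15 of the 19 members called higher and 15 of the 18 called lower. TGATGNAA was found in 2 of these windows, those of SEMA3C and SEMA4A, and in 3.62% of all 35114 windows. The SEMA3C match began 19 bases before the annotated start, at position -19. The ER stress element and the AP-1 site were in none of the 94 windows, and in 0.0769% and 4.95% of all windows. The E-box was in 4 member windows and in 7.26% of all windows. A match is a description of letters and not a bound site.

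Among netrin receptors the response was very uneven. UNC5B (ENSG00000107731, chromosome 10, 71212570 to 71302864 on GRCh38) had 62.4, 58.8 and 59.9 CPM in Schisandrin B, against 1.56, 2.59 and 1.28 CPM in vehicle. The lowest Schisandrin B library was far above the highest vehicle library. The means were 60.4 ± 1.81 CPM in Schisandrin B and 1.81 ± 0.692 CPM in vehicle (SD, n = 3 each). The log2 fold change was 5.08 (SE 0.15, edgeR adjusted p = 6.64e-13), and 14 of 12472 protein-coding genes had a larger log2 fold change. In raw counts, 2695 reads were assigned to UNC5B over the Schisandrin B libraries and 81 over the vehicle libraries. UNC5A, a second repulsive netrin receptor, moved the other way, with 3.43, 5.44 and 3.10 CPM in Schisandrin B, against 6.97, 7.28 and 7.56 CPM in vehicle. Its groups did not overlap, and its log2 fold change was -0.87 (SE 0.20, edgeR adjusted p = 8.32e-04).

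The remaining netrin receptors were below the count filter. UNC5C had 43 counts over the Schisandrin B libraries and 11 over the vehicle libraries, which at equal depth is 4.01 times as many (95% interval 2.04 to 8.63, exact binomial). DCC had 32 and 12 counts, a ratio of 2.74 with an interval of 1.37 to 5.84. These intervals cover counting error only. For both genes all 3 Schisandrin B libraries were above all 3 vehicle libraries, and with no filter on low counts edgeR gave adjusted p = 0.00267 for UNC5C and adjusted p = 0.0489 for DCC. The authors' deposited table gives DCC an adjusted p of 0.195 and does not label it as changed. DCC shares 190 of 13160 exonic bases with LINC01917 on the opposite strand, which had 52 and 38 counts over the Schisandrin B and vehicle libraries. The DCC ratio is therefore uncertain where strand was not used in counting. UNC5D had no count in either group, which allows up to 0.0673 CPM in Schisandrin B and 0.0656 CPM in vehicle from 3 counts over a group. On the authors' FPKM scale, which divides by transcript length, UNC5B averaged 7.77 in Schisandrin B and 0.220 in vehicle, and its place among the 71 members was 14 and 41. UNC5A averaged 0.909 and 1.63 FPKM, so the more abundant UNC5 transcript was UNC5B in Schisandrin B and UNC5A in vehicle.

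Netrin ligands changed little in comparison. NTN1, the classical secreted netrin that binds DCC and UNC5, had 26.7, 27.5 and 26.0 CPM in Schisandrin B, against 34.1, 31.0 and 36.3 CPM in vehicle. It fell by 0.34 on the log2 scale (SE 0.08, edgeR adjusted p = 0.00131) with no overlap between groups. NTNG2, a membrane-anchored netrin-G that does not act through DCC or UNC5, had 5.69, 6.90 and 5.47 CPM in Schisandrin B, against 4.15, 2.94 and 2.44 CPM in vehicle. Its log2 fold change was 0.93 (SE 0.21, edgeR adjusted p = 7.38e-04), but on the authors' FPKM scale its libraries overlapped, with 1.18, 1.41 and 1.22 FPKM in Schisandrin B and 1.35, 0.648 and 0.561 FPKM in vehicle. NTN5 stood at 0.812 and 0.839 CPM (edgeR adjusted p = 0.971). NTN3 had 17 and 18 counts and NTN4 had 9 and 2 over the Schisandrin B and vehicle libraries, and NTNG1 had none in either. NTN1 was the most abundant netrin in both groups, at 3.93 FPKM in Schisandrin B and 4.80 FPKM in vehicle.

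All 3 ROBO receptors that could be tested rose. ROBO4 (ENSG00000154133, chromosome 11, 124883691 to 124898500 on GRCh38), known chiefly from endothelial cells, had 19.8, 23.6 and 19.0 CPM in Schisandrin B, against 1.78, 1.54 and 1.61 CPM in vehicle. That is a log2 fold change of 3.66 (SE 0.15, edgeR adjusted p = 7.83e-13), 12.6-fold higher. ROBO3, which in mammals binds NELL2 rather than SLIT with high affinity, had 48.7, 54.2 and 56.1 CPM in Schisandrin B, against 13.9, 13.3 and 12.3 CPM in vehicle, a log2 fold change of 2.01 (SE 0.09, edgeR adjusted p = 1.42e-12). ROBO1, a principal SLIT receptor outside the nervous system, had 43.8, 42.5 and 45.7 CPM in Schisandrin B, against 28.6, 20.7 and 20.3 CPM in vehicle. Its log2 fold change was 0.93 (SE 0.11, edgeR adjusted p = 1.17e-05), and vehicle replicate 1 stood above the other vehicle libraries without reaching the Schisandrin B range. None of these 3 receptors overlapped between groups. ROBO2 had 1 count in Schisandrin B and none in vehicle.

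ROBO3 and ROBO4 are neighbours on chromosome 11. ROBO3 runs from 124865432 to 124881471 on the plus strand and ROBO4 on the minus strand, so that their 3′ ends face each other across 2219 bases with no other protein-coding gene of the table between them. The ROBO4 start region printed above lies at the far end of that pair. Endothelial markers were measured beside ROBO4. The summed level of 5 of them ranged from 3.86 to 5.83 CPM in Schisandrin B and from 15.5 to 16.2 CPM in vehicle. PECAM1 was at 0 in all Schisandrin B libraries and at 0, 0.140 and 0 CPM in vehicle, and CDH5 fell to 1.04, 1.12 and 1.73 CPM in Schisandrin B, against 13.2, 12.3 and 13.3 CPM in vehicle. ESAM, the most abundant of the 5 in Schisandrin B, had 2.45, 3.56 and 3.89 CPM there, against 2.74, 2.24 and 2.06 CPM in vehicle, and was not called (log2 fold change 0.49, edgeR adjusted p = 0.0756). VWF had 12 counts over the Schisandrin B libraries and 22 over the vehicle libraries, and TEK had none and 3. The lower sum in Schisandrin B came almost wholly from CDH5, and the part of these markers in the ROBO4 result was not tested.

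SLIT ligands were scarce in both groups. SLIT1 had 1.41, 1.32 and 1.37 CPM in Schisandrin B, against 1.63, 1.33 and 1.44 CPM in vehicle, and was not called (log2 fold change -0.10, SE 0.27, edgeR adjusted p = 0.753). SLIT3 had 6 and 5 counts over the Schisandrin B and vehicle libraries, and SLIT2 had none in either. Summed over the family, SLIT ligands reached 0.1593 FPKM in Schisandrin B and 0.161 FPKM in vehicle, while ROBO receptors reached 33.41 and 10.56 FPKM.

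**Figure D2:**
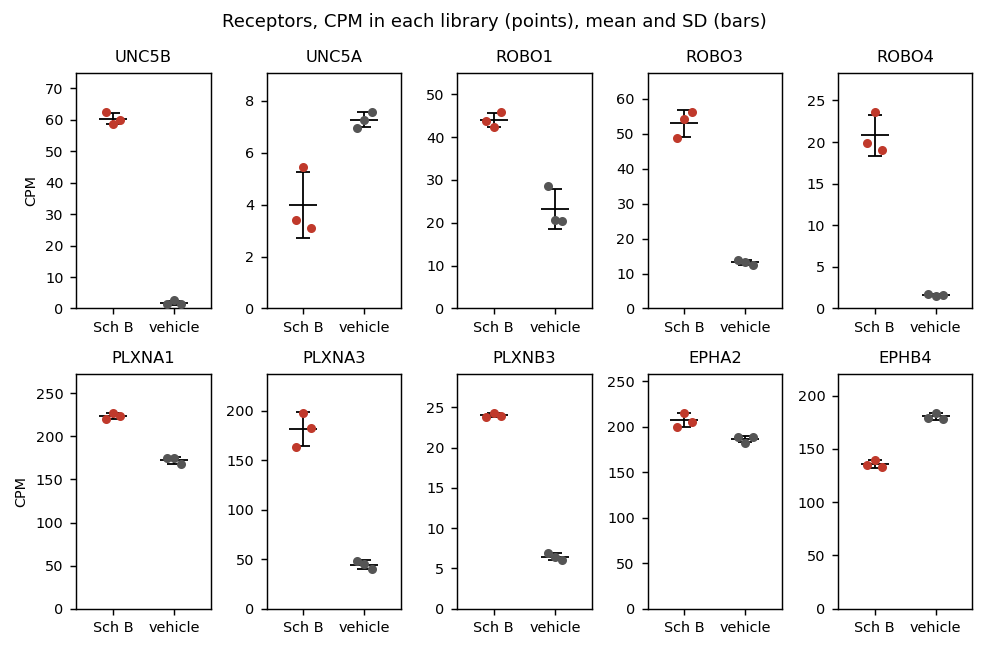
CPM of 10 receptors in each library (points) with the mean and SD (bars, n = 3), Schisandrin B at the left and vehicle at the right of each panel, each y axis starting at 0. UNC5B, ROBO4, ROBO3, PLXNA3 and PLXNB3 are several-fold higher in Schisandrin B, EPHA2 differs by a small margin, and UNC5A and EPHB4 are lower.

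Of the 7 plexins tested, 5 rose. PLXNA3 (ENSG00000130827, chromosome X, 154458281 to 154477779 on GRCh38), which with neuropilins receives class 3 semaphorins, had 164, 198 and 183 CPM in Schisandrin B, against 48.7, 45.0 and 40.2 CPM in vehicle. Its log2 fold change was 2.03 (SE 0.09, edgeR adjusted p = 1.29e-08). PLXNB3, a receptor for SEMA5A, had 23.8, 24.3 and 23.9 CPM in Schisandrin B, against 6.90, 6.44 and 6.06 CPM in vehicle, a log2 fold change of 1.90 (SE 0.10, edgeR adjusted p = 4.23e-11). PLXNB1, the receptor of SEMA4D, had 14.6, 18.8 and 14.7 CPM in Schisandrin B, against 8.83, 8.54 and 9.06 CPM in vehicle, a log2 fold change of 0.86 (SE 0.12). For all 3 genes the groups were clearly apart. PLXNB3 shares 1432 of its 7007 exonic bases with SRPK3 on the same strand, which had 195 and 40 counts over the Schisandrin B and vehicle libraries, so reads of that stretch could belong to either gene.

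Other plexins changed less. PLXNA1, also a partner of neuropilins, rose 1.30-fold to 224 ± 3.40 CPM in Schisandrin B, against 172 ± 4.00 CPM in vehicle (SD, n = 3 each). PLXNC1, the receptor of SEMA7A, rose 1.79-fold from few counts, 147 over the Schisandrin B libraries and 84 over the vehicle libraries, and was not called by DESeq2 (adjusted p = 0.0588). PLXNC1 shares 177 exonic bases with CEP83 and 222 with an antisense gene, both on the opposite strand. CEP83 had 1333 and 912 counts and the antisense gene 51 and 6. The PLXNC1 value is uncertain where strand was not used in counting. PLXND1, the receptor of SEMA3E, stood at 176 ± 3.06 CPM in Schisandrin B and 192 ± 9.13 CPM in vehicle (SD, n = 3 each), with a log2 fold change of -0.13 (SE 0.04, edgeR adjusted p = 0.0164). That call was lost without vehicle replicate 2 (edgeR adjusted p = 0.0839), with upper-quartile scaling (0.189), with library totals (0.0938) and with a filter of 5 CPM in 3 libraries (0.339), and PLXND1's authors' FPKM ran the other way at 26.8 and 25.0. PLXNB2, the receptor of SEMA4C, stood at 184 and 181 CPM (edgeR adjusted p = 0.598). PLXNA2 had 8 counts over the Schisandrin B libraries and none over the vehicle libraries, and PLXNA4 had none and 2.

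By length-scaled level the order of the plexins changed. In Schisandrin B the authors' FPKM placed PLXND1 at 26.8, PLXNB2 at 26.3, PLXNA1 at 22.6 and PLXNA3 at 19.8. In vehicle PLXNB2 and PLXND1 were both at 25.0, PLXNA1 was at 16.4 and PLXNA3 at 4.01. PLXNB2 and PLXND1 overlapped in each group. Summed over the family, plexins reached 102.5, 104.2 and 102.0 FPKM in the Schisandrin B libraries and 73.68, 74.35 and 70.65 FPKM in the vehicle libraries.

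Both neuropilins were almost absent. NRP1, the co-receptor for SEMA3A, had 19 counts over the Schisandrin B libraries and 17 over the vehicle libraries, and NRP2, the co-receptor for SEMA3F, had 10 in each. At equal depth NRP1 stood at a ratio of 1.15 (95% interval 0.565 to 2.35, exact binomial). The family summed to 0.09113 FPKM in Schisandrin B and 0.07885 FPKM in vehicle, and the class 3 semaphorins described next were measured in the same libraries.

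Class 3 semaphorins, the secreted members of the family, went in both directions and differed widely in level. SEMA3B, encoded in a tumour suppressor region of chromosome 3, had 19.5, 25.0 and 19.8 CPM in Schisandrin B, against 4.90, 5.46 and 3.83 CPM in vehicle, a log2 fold change of 2.19 (SE 0.14, edgeR adjusted p = 6.45e-10). SEMA3D had 27.9, 28.5 and 30.0 CPM in Schisandrin B, against 76.4, 73.5 and 84.7 CPM in vehicle, and fell by 1.45 on the log2 scale (SE 0.07, edgeR adjusted p = 3.86e-12). SEMA3G, present at few counts, fell, with 0.490, 1.19 and 0.432 CPM in Schisandrin B, against 3.26, 2.10 and 2.33 CPM in vehicle (log2 fold change -1.86, SE 0.35). None of the 3 overlapped between groups.

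The most abundant class 3 ligands moved by smaller factors. SEMA3A, the prototype repellent, was 1.31-fold lower in Schisandrin B, at 230 ± 12.4 CPM against 301 ± 2.99 CPM in vehicle (SD, n = 3 each, edgeR adjusted p = 4.6e-07). SEMA3C, linked to tumour cell invasion in several carcinomas, rose 1.38-fold to 140 ± 10.5 CPM, against 101 ± 4.40 CPM in vehicle (edgeR adjusted p = 1.03e-06). The start region of SEMA3C carries the TGATGTAA match shown above. On the authors' FPKM scale SEMA3A averaged 26.3 and SEMA3C 26.5 in Schisandrin B, with overlapping libraries, whereas in vehicle SEMA3A averaged 32.2 and SEMA3C 18.9 with none. SEMA3F had 70 counts in each group and was not called, and SEMA3E had 3 and 1. The summed FPKM of the class did not separate the groups, with 63.29, 67.51 and 61.26 in Schisandrin B and 63.51, 61.31 and 64.66 in vehicle. SEMA3A and SEMA3D, which both fell, are adjacent protein-coding genes on chromosome 7.

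Among the membrane-bound semaphorins, 3 of 9 tested rose and 5 fell. SEMA6B, a transmembrane ligand of class A plexins, had 2.57, 3.28 and 2.95 CPM in Schisandrin B, against 17.3, 16.5 and 13.3 CPM in vehicle. It had the largest fall of the members, 2.42 on the log2 scale (SE 0.15, edgeR adjusted p = 3.18e-10), or 5.33-fold. SEMA6A, its close relative, went the other way with 2.63, 3.83 and 2.52 CPM in Schisandrin B, against 1.41, 1.61 and 0.889 CPM in vehicle (log2 fold change 1.22, SE 0.28, edgeR adjusted p = 0.00103). SEMA6A shares 268 of 10956 exonic bases with SEMA6A-AS1 on the opposite strand. SEMA6A-AS1 had 55 and 20 counts over the Schisandrin B and vehicle libraries, beside the 133 and 58 of SEMA6A. SEMA4G had 3.06, 3.07 and 3.31 CPM in Schisandrin B, against 2.08, 1.12 and 1.67 CPM in vehicle (log2 fold change 0.95, SE 0.25). SEMA4G shares 1170 of 5253 exonic bases with MRPL43 on the opposite strand, which had 1156 and 1944 counts beside the 140 and 74 of SEMA4G, so its value is uncertain where strand was not used in counting.

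The more abundant class 4 members changed by modest factors. SEMA4B fell 1.53-fold to 51.5 ± 5.95 CPM in Schisandrin B, against 78.8 ± 3.93 CPM in vehicle, and SEMA4C, the ligand of PLXNB2, rose 1.35-fold to 71.5 ± 4.46 CPM, against 53.1 ± 4.74 CPM (SD, n = 3 each). SEMA4F fell 1.23-fold (edgeR adjusted p = 0.00373). SEMA4D, the ligand of PLXNB1, fell 1.16-fold (edgeR adjusted p = 0.0382) and SEMA6C 1.18-fold (edgeR adjusted p = 0.0237), and both calls were near the threshold. With 1 library left out the log2 fold change ran from -0.29 to -0.15 for SEMA4D and from -0.29 to -0.21 for SEMA6C. For SEMA4D the edgeR adjusted p was 0.150 without Schisandrin B replicate 1, 0.0858 without Schisandrin B replicate 3, 0.0772 without vehicle replicate 1 and 0.0585 without vehicle replicate 2. For SEMA6C it was 0.0772 without Schisandrin B replicate 1, 0.0686 without Schisandrin B replicate 3 and 0.0590 without vehicle replicate 1. SEMA7A was not called (1.05 and 0.796 CPM, edgeR adjusted p = 0.348). SEMA4A had 1 count in each group, SEMA5B had 1 and 2, and SEMA5A and SEMA6D had none.

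**Figure D3:**
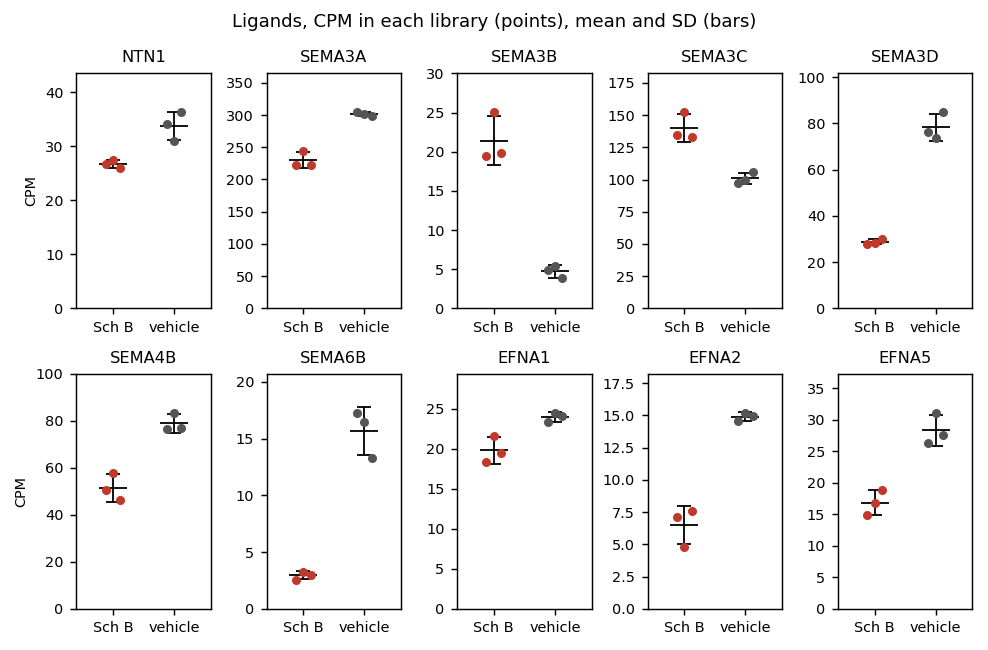
CPM of 10 ligands in each library (points) with the mean and SD (bars, n = 3), Schisandrin B at the left and vehicle at the right of each panel, each y axis starting at 0. SEMA3B and SEMA3C are higher in Schisandrin B and the other 8 ligands shown are lower, and SEMA6B at 2.93 and 15.7 CPM has the largest fold difference of the 10.

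EPH receptors of the A class held the member with the highest FPKM of the whole set in both groups. EPHA2, a receptor often raised in carcinomas, had 200, 215 and 205 CPM in Schisandrin B, against 189, 183 and 188 CPM in vehicle. Its rise of 0.15 on the log2 scale (SE 0.04, edgeR adjusted p = 0.00518) was small and was not called by DESeq2 (adjusted p = 0.0730) or with no filter on low counts (edgeR adjusted p = 0.0991). EPHA10, a member whose kinase domain lacks activity, had 24.0, 26.3 and 21.0 CPM in Schisandrin B, against 14.5, 14.4 and 12.6 CPM in vehicle (log2 fold change 0.79, SE 0.11, edgeR adjusted p = 3.93e-06). EPHA8 had 5.57, 4.53 and 4.68 CPM in Schisandrin B, against 2.82, 2.52 and 3.39 CPM in vehicle (log2 fold change 0.75, SE 0.20). EPHA8's FPKM overlapped, at 1.31, 1.10 and 0.818 in Schisandrin B and 0.688, 0.725 and 1.24 in vehicle. EPHA4 stood at 121 ± 6.63 and 125 ± 3.72 CPM (SD, n = 3 each, edgeR adjusted p = 0.405).

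EPHA7 was called lower on few reads. It had 15 counts over the Schisandrin B libraries and 51 over the vehicle libraries, its groups overlapped, and its log2 fold change was -1.72 (SE 0.64, edgeR adjusted p = 0.0318). The edgeR adjusted p was 0.102 without Schisandrin B replicate 1, 0.106 without Schisandrin B replicate 2, 0.107 without vehicle replicate 1 and 0.0545 without vehicle replicate 2, and leaving out Schisandrin B replicate 3 gave EPHA7 a log2 fold change of -3.05. EPHA1 was below the filter with 24 and 7 counts, which at equal depth is a ratio of 3.52 (95% interval 1.47 to 9.68, exact binomial). EPHA1 shares 82 of 4733 exonic bases with ZYX on the opposite strand, which had 6421 and 6223 counts. Its ratio is uncertain where strand was not used in counting. EPHA5 had 1 count in Schisandrin B and none in vehicle, EPHA6 had 3 and 2, and EPHA3 had none.

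EPHB receptors did not rise. EPHB4, the receptor of EFNB2, had 135, 140 and 133 CPM in Schisandrin B, against 179, 184 and 178 CPM in vehicle, and fell by 0.41 on the log2 scale (SE 0.04, edgeR adjusted p = 1.81e-07). EPHB3 had 0.735, 0.558 and 0.648 CPM in Schisandrin B, against 1.48, 2.94 and 2.17 CPM in vehicle (log2 fold change -1.75, SE 0.33, edgeR adjusted p = 1.51e-04). Both genes had no overlap between groups. EPHB2 stood at 9.63 and 9.49 CPM and was not called (edgeR adjusted p = 0.886). EPHB1 had 4 counts in Schisandrin B and none in vehicle, and EPHB6 had none. By mean FPKM EPHA2 and EPHB4 stood first and second among the members in both groups, with 46.2 and 27.5 FPKM in Schisandrin B and 40.5 and 35.2 FPKM in vehicle. In each group all EPHA2 libraries lay above all EPHB4 libraries, by a wider margin in Schisandrin B, where EPHB4 overlapped PLXND1 and SEMA3C and its place next to them is not separated.

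Of the 5 ephrin-A ligands, which are anchored to the membrane by a lipid, 4 fell and 1 rose. EFNA2 had 7.10, 4.81 and 7.56 CPM in Schisandrin B, against 14.5, 15.2 and 14.9 CPM in vehicle (log2 fold change -1.20, SE 0.15, edgeR adjusted p = 1.29e-06). EFNA5 had 14.8, 16.8 and 18.9 CPM in Schisandrin B, against 26.3, 31.1 and 27.6 CPM in vehicle (log2 fold change -0.75, SE 0.10, edgeR adjusted p = 4.92e-06). The groups of both were separate. EFNA1, the best known ligand of EPHA2, fell 1.21-fold (edgeR adjusted p = 0.0117), a call lost without Schisandrin B replicate 1 (0.0547). EFNA4 fell 1.28-fold (edgeR adjusted p = 0.0435). EFNA3 had 7.35, 8.44 and 5.91 CPM in Schisandrin B, against 5.19, 4.97 and 5.95 CPM in vehicle, with 1 library of Schisandrin B inside the vehicle range (log2 fold change 0.43, SE 0.17, edgeR adjusted p = 0.0327).

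The calls of EFNA3 and EFNA4 were near the threshold. With 1 library left out the log2 fold change ran from 0.31 to 0.55 for EFNA3 and from -0.47 to -0.22 for EFNA4, each in the direction of the full fit. For EFNA3 the edgeR adjusted p was 0.0714 without Schisandrin B replicate 1, 0.148 without Schisandrin B replicate 2, 0.0866 without vehicle replicate 1 and 0.105 without vehicle replicate 2. For EFNA4 it was above the threshold on leaving out any of 5 libraries, at 0.200 without Schisandrin B replicate 1, 0.0601 without Schisandrin B replicate 2, 0.130 without vehicle replicate 1, 0.0512 without vehicle replicate 2 and 0.0584 without vehicle replicate 3. Both genes share exons with a read-through gene on the same strand, by 853 of 1909 exonic bases for EFNA3 and 189 of 1263 for EFNA4, and that gene had no count in Schisandrin B and 2 in vehicle.

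None of the 3 ephrin-B ligands, which span the membrane, was called. EFNB1 stood at 16.9 ± 1.11 and 15.9 ± 0.755 CPM, EFNB3 at 10.3 ± 1.63 and 12.6 ± 1.49 CPM and EFNB2 at 1.32 ± 0.412 and 1.29 ± 0.506 CPM in Schisandrin B and vehicle (SD, n = 3 each). The edgeR adjusted p was 0.425 for EFNB1, 0.0619 for EFNB3 and 0.940 for EFNB2. EFNB3 passed the threshold without Schisandrin B replicate 2 (0.0131) and without vehicle replicate 1 (0.0388).

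**Figure D4:**
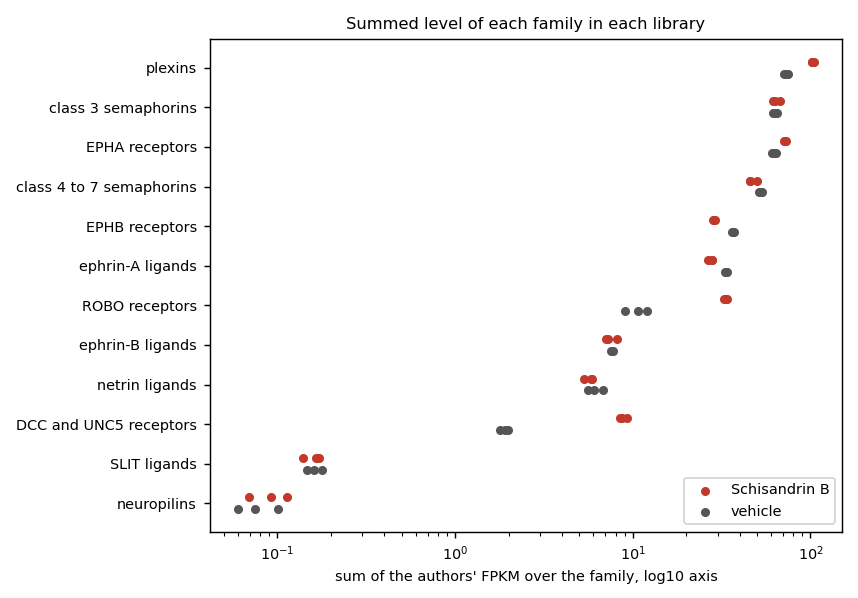
Sum of the authors' FPKM over the members of each family (x axis, log10) in each library, Schisandrin B above vehicle in each row. The ROBO receptors at 33.41 and 10.56, the DCC and UNC5 receptors at 8.824 and 1.891 and the plexins at 102.9 and 72.89 are higher in Schisandrin B on average, and SLIT ligands and neuropilins lie under 0.2 in both groups.

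In family sums of FPKM, the ratio of Schisandrin B to vehicle was highest among receptors for the DCC and UNC5 group, then ROBO, while plexins had the largest difference in FPKM. DCC and UNC5 receptors together reached 9.294, 8.654 and 8.524 FPKM in Schisandrin B, against 1.794, 1.974 and 1.905 FPKM in vehicle. EPHA receptors reached 71.93 and 62.34 FPKM and EPHB receptors 28.63 and 36.66 FPKM. Ephrin-A ligands reached 27.4 and 33.55 FPKM, and ephrin-B ligands 7.505 and 7.623 FPKM with overlapping libraries. These sums are descriptions, since most of each sum comes from 1 or a few genes. In the length-scaled order of all 71 members, ROBO4 stood at place 20 in Schisandrin B and 38 in vehicle and PLXNA3 at 9 and 23. SEMA6B stood at 37 and 25, SEMA3D at 26 and 12, and EFNA2 at 31 and 17.

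A list of 93 co-receptors, adaptors and cytoskeletal effectors of these receptors was counted in the same fit. Of 74 tested, 22 rose, 34 fell and 18 did not pass, which is 75.7% called beside 73.4% of protein-coding genes. Over protein-coding genes 32.1% were higher and 41.4% lower, so falls outnumbered rises there too. The median log2 fold change was -0.13 for the list, beside -0.08 over protein-coding genes. FYN, a Src family kinase that acts downstream of DCC and other guidance receptors, had 29.7, 28.9 and 28.3 CPM in Schisandrin B, against 2.60, 2.10 and 2.67 CPM in vehicle, an 11.7-fold rise (edgeR adjusted p = 8.76e-14). DOCK3, an exchange factor for RAC1, rose 4.51-fold, and FLRT1, of a family of adhesion proteins that bind UNC5 receptors, rose 3.55-fold. MICAL1, an enzyme that oxidises actin downstream of plexins, rose 2.89-fold to 116 ± 3.95 CPM, against 40.2 ± 1.04 CPM in vehicle (SD, n = 3 each). BOC, a co-receptor in guidance of commissural axons, rose 4.32-fold from few counts, and its log2 fold change of 2.11 was 2.84 without vehicle replicate 3.

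On the falling side were a ligand and several effectors. RGMA, a repulsive ligand of neogenin, was 4.12-fold lower in Schisandrin B, at 0.612, 0.976 and 0.864 CPM, against 3.41, 3.29 and 3.39 CPM in vehicle. DPYSL5, of the collapsin response mediator family that transmits semaphorin signals, fell 2.97-fold to 26.5 ± 1.14 CPM, against 78.6 ± 1.25 CPM (SD, n = 3 each). CDK5, a kinase of neuronal migration, fell 2.94-fold, RGS3, a regulator of signalling through B ephrins, 2.76-fold and MYL9, a myosin light chain, 2.66-fold. The edgeR adjusted p of these 5 genes was 2.47e-06 or smaller. Named after its values were seen, the actin-severing protein CFL1 fell 2.50-fold to 478 ± 5.09 CPM, against 1196 ± 26.6 CPM in vehicle. RGMB, a relative of RGMA on the same list, rose 2.79-fold to 370 ± 15.7 CPM, against 132 ± 4.26 CPM in vehicle (SD, n = 3 each). RGMB was also named after its values were seen.

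**Figure D5:**
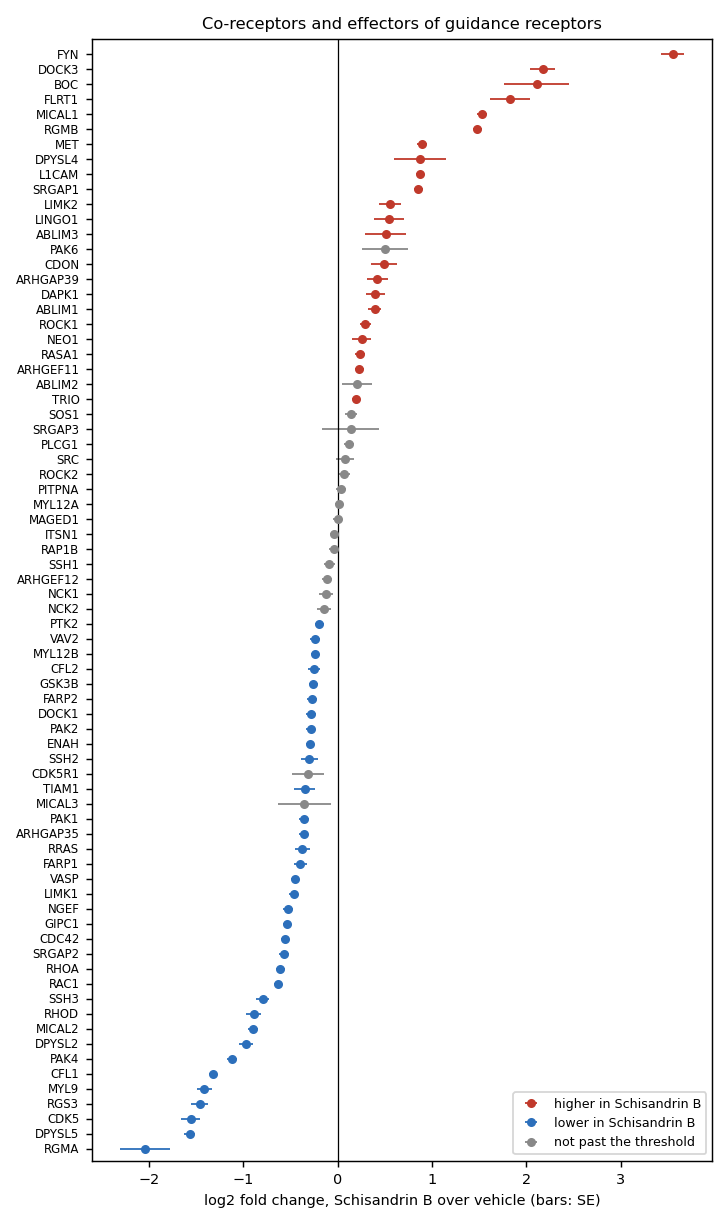
Log2 fold change of Schisandrin B over vehicle (x axis, bars are the SE) for the 74 tested co-receptors and effectors, ordered from the largest rise at the top to the largest fall at the bottom, with colour showing the call at an adjusted p of 0.05. FYN leads the rises at 3.55 and RGMA the falls at -2.04. Of the 74 genes 34 are lower and 22 higher, where 41.4% of protein-coding genes are lower and 32.1% higher.

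The authors' deposited table labels 8 members as up and 6 as down. Of these, 7 were also called higher here and all 6 were called lower. The other one is UNC5C, which the count filter left out here and to which the authors' deposited table gives a log2 fold change of 1.98. For UNC5B the authors' deposited table gives 5.05 and for SEMA6B -2.46. The labels follow another rule than the calls here, since every labelled member differed by more than 2-fold in the deposited values. EPHB4 and SEMA3A were not labelled at an authors' adjusted p of 2.13e-15 and 1.88e-17, and EPHA7 was labelled down at 0.0534. Both sets of calls come from the same libraries, so their overlap is not independent evidence.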

How the data were processed

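RNA was measured in 6 PANC-1 libraries made with a SMARTER mRNA-Seq kit, per the labels' protocols. The authors deposited raw counts, 1 whole number for each Ensembl gene and library. The deposited FPKM values were scaled by the authors for transcript length and depth, and they are not a fixed multiple of the counts for every gene. They were used to compare levels between genes and, without a test, to describe single genes and family sums in each group. Between groups, FPKM per count relative to the median gene moved by -0.53 on the log2 scale for EPHA8, -0.34 for NTNG2 and 0.32 for PLXNB1. That shift was over 0.5 in 1 of the 47 tested members. The fold in the authors' table sets Schisandrin B over vehicle as a ratio, the deposited log2 column holds the same ratio on a log scale, and the deposited p-values are from the authors' own test. The submitters' processing notes name GRCh38 and mm10. Names of the aligner, counting tool, strand setting and authors' test were not given in the sources used here. Genes that overlap another are therefore uncertain. All 71 members overlap their GENCODE release 29 positions on GRCh38; 26 share exonic bases with another gene, 11 of them among the 37 called.

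Group and replicate number were read from each title. The count model was edgeR 4.0.16 (R 4.3.3), with filterByExpr (15773 of 63241 genes kept), TMM factors and robust quasi-likelihood F-tests, adjusted by Benjamini-Hochberg over all genes tested at 0.05. Each SE was obtained as log2 fold change over root F. CPM carry the TMM factors. Intervals are exact binomial 95% intervals and floors are 3 counts over a group; both cover counting error only. Fits were tested on simulated data.

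Members and lists were chosen with earlier results of these data known. CPM in every library are given for UNC5B and for up to 3 called members per family with the largest log2 fold change and a mean of at least 1 CPM, and up to 5 effectors per direction are named. Alternatives were RLE, upper-quartile and no scaling factors, no filter, a filter of 5 CPM in 3 libraries, DESeq2 1.42.0, limma voom 3.58.1, a replicate block, a threshold of 0.01 and leaving out each library. Libraries with the same number had deviations correlated across genes at 0.03, -0.05 and -0.01, and pairing was not assumed. Plots used matplotlib 3.10.9.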

Additional observations from a re-analysis of the deposited data

How the results depend on the processing

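Of the 37 called members, 28 kept their call and direction in every alternative that tested them. The 9 that lost it somewhere were EFNA1, EFNA3, EFNA4, EPHA2, EPHA7, PLXNC1, PLXND1, SEMA4D and SEMA6C. UNC5B stayed between 4.84 and 5.41 on the log2 scale over 15 alternatives, ROBO4 between 3.57 and 3.74, PLXNA3 between 1.95 and 2.11 and SEMA6B between -2.53 and -2.32. Members called lower numbered 10 instead of 18 with a filter of 5 CPM in 3 libraries, which tests 35 members instead of 47 and moves the median log2 fold change of shared genes by 0.08. With the same 47 tested, 14 were lower with upper-quartile scaling and 14 with library totals, and 19 were higher in both. Over all 15773 genes tested, 5546 were lower in the main fit, 5072 with upper-quartile scaling and 5216 with library totals. The number called lower thus depended on the scaling, for the members and over all genes. DESeq2 called 17 members higher and 14 lower, and over all genes 4599 higher and 5240 lower. With 1 library left out, 18 to 20 members were higher and 13 to 17 lower. Over all genes 5284 to 5423 were then higher and 5332 to 5414 lower.

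With the replicate number as a block, 18 members were higher and 17 lower, and all genes split into 5471 higher and 5504 lower. EFNA3, EFNA4 and EPHA7 lost their calls under the block (edgeR adjusted p = 0.0533, 0.0568 and 0.0742) and EFNB3 gained one (edgeR adjusted p = 0.0409).

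Of the 10 members not called, 6 changed sign in some alternative. Over genes shared with the main fit, the median shift of the log2 fold change was -0.0541 with no low-count filter and -0.0394 with DESeq2. It was 0.0616 with upper-quartile scaling, 0.0431 with library totals, 0.0814 with the 5 CPM filter and -7e-04 with limma voom. The cause of the sign changes was not tested. With no low-count filter the log2 fold change was -0.0240 for EFNB2, -0.0326 for EPHB2, -0.0265 for PLXNB2 and -0.0030 for SEMA3F. With DESeq2 it was -0.0118 for EFNB2, -0.0181 for EPHB2 and -0.0113 for PLXNB2. With upper-quartile scaling it was 0.0142 for EPHA4 and 0.0421 for NTN5, with library totals 0.0240 for NTN5, with limma voom 0.0845 for NTN5 and -0.0403 for SEMA3F, and with the 5 CPM filter 0.0337 for EPHA4. With 1 library left out the range was -0.23 to 0.29 for EFNB2, -0.0497 to 0.0808 for EPHB2, -0.37 to 0.47 for NTN5, -0.0090 to 0.0516 for PLXNB2 and -0.26 to 0.35 for SEMA3F. PLXNB2 was called higher with the 5 CPM filter (edgeR adjusted p = 0.0358). EPHA7, which was called, and SLIT1 and NTN5, which were not, were tested on few counts and had SEs of 0.64, 0.27 and 0.42. Changes could be missed at that depth, and the size of change that could be detected was not computed.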
